A study of Mus musculus with 12 samples.

Results

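The cytosolic ribosomal protein genes encode the protein part of the ribosomes that translate nuclear messages in the cytoplasm. They were taken as every gene symbol in the count tables built from Rps or Rpl and a number, with an optional a, l or x at the end, together with Rplp0, Rplp1, Rplp2 and Rpsa, and with at least 10 counts over the 12 libraries. Of 26264 gene symbols, 82 had such a name and 81 reached the minimum, 32 of the small and 49 of the large subunit. The one symbol that did not, Rpl10l, a paralog of Rpl10, had 0 counts in all 12 libraries. The 81 genes lay on 19 chromosomes, with at most 14 on any of them.

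RNA was sequenced from isolated glomeruli, the capillary filters of the kidney, of mice of the 2 substrains BALB/cAjcl, called Ajcl here, and BALB/cByJcl, called ByJcl. All mice were males obtained at 8 weeks of age. Baseline mice were untreated, and Day 5 mice were taken 5 days after 1 intravenous dose of 10 mg/kg adriamycin (ADR, doxorubicin), an anthracycline that damages DNA and injures podocytes. Each of the 4 groups had 3 libraries, numbered 1 to 3 in the labels. Replicate 1 of Ajcl at Day 5 was left out of the tests because the study excluded it for reduced glomerular purity. Main results are also given with it below, but not every value. Fold changes that use the Ajcl Day 5 group can change sign when it is added.

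Cells keep the subunits of the ribosome in balance by making its proteins in near equal amounts from many separate genes. Most of these genes carry a run of pyrimidines at the start of the message, the terminal oligopyrimidine (TOP) motif, through which mTOR and Larp1 control their translation. When ribosome assembly fails, free ribosomal proteins such as Rpl5 and Rpl11 bind Mdm2, the ligase that destroys p53, and p53 accumulates. Rps27l is a paralog of Rps27 and a known target gene of p53. Mutations in several members, Rps19 foremost, cause Diamond-Blackfan anaemia in humans.

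Stretches of 30 bases at or near the annotated start of the message are shown for 6 members on which the results below turn, with the longest run of C and T that opens with a C in capitals, the first where runs are equally long. They were read from the GRCm39 genome around the start of the canonical transcript of GENCODE vM39, which need not be the start used in glomeruli. The run began 6 bases downstream of that start in Rps27l, 20 in Rps27, 88 in Rps19, 55 in Rpl12 and 13 in Rplp0, and at position -5 in Rps2. The Rps27, Rps19 and Rpl12 stretches therefore do not include the start.
Rps27l (chr9:66853335-66853364, + strand): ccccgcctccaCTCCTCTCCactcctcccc
Rps27 (chr3:90120939-90120968, - strand): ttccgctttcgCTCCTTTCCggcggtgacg
Rps19 (chr7:24583866-24583895, + strand): cttatcctcctcccgagtCCCTTCTCTTgg
Rps2 (chr17:24939072-24939101, + strand): cggcgCCTCCCTCTTCTTCTTCTTCgggag
Rplp0 (chr5:115697526-115697555, + strand): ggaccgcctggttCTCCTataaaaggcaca
Rpl12 (chr2:32851540-32851569, + strand): ccgaacatttaCCCCTTCCgaatcccgagc
The run had 9 bases in Rps27l and in Rps27, 10 in Rps19, 20 in Rps2, 8 in Rpl12 and 5 in Rplp0. Rps27l holds a second run of equal length, ctcctcccc, left in lower case. Between 50 bases before and 100 bases after the start, on the strand of the gene, 63 of the 81 members (77.8%) held such a run of at least 8 bases, against 8671 of 21671 other protein-coding genes (40.0%). The longest, of 23 bases, was in Rpl11. A run found this way is a description of the letters and not a tested TOP motif.

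At baseline the counted mRNA of the members spanned a wide range per unit of length, although most lay close together. The mean over the 6 baseline libraries, in counts scaled to library size by TMM (CPM) per kilobase of canonical transcript, had a median of 174 over the 80 tested members. The middle 50% of members lay between 93.0 and 257.6 CPM per kb, and 59 of 80 were over 100. The highest were Rplp1 at 578 CPM per kb, Rps12 at 560, Rps15 at 520, Rpl41 at 478 and Rps14 at 464. Rplp1 is a protein of the P stalk, which recruits elongation factors, and Rps12, Rps15 and Rps14 are proteins of the small subunit. The lowest were Rps27 at 2.23 CPM per kb, Rpl32l at 2.09 and Rpl3l, the striated muscle paralog of Rpl3, at 0.122. Rpl3l had between 0 and 17 counts per library and Rpl32l, annotated as a transcribed processed pseudogene, between 20 and 65.

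**Figure D1:**
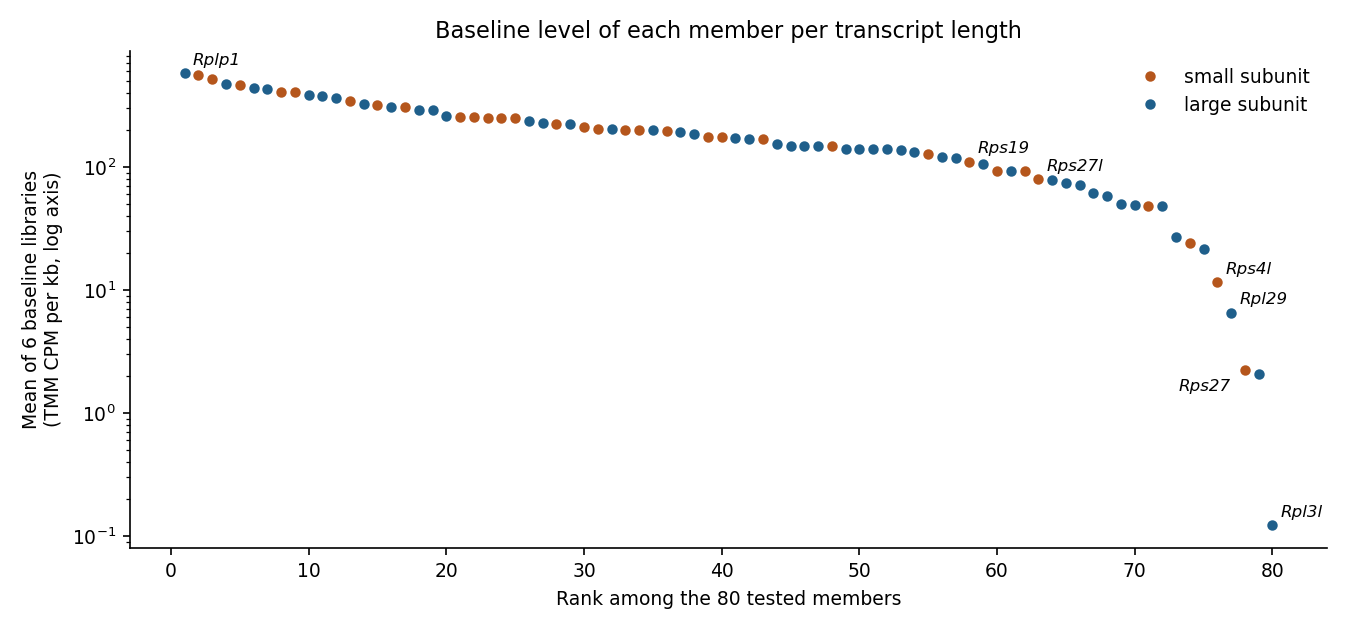
Baseline level of the 80 tested members in order of rank, as the mean TMM CPM per kilobase of canonical transcript over 6 libraries, on a log axis; small-subunit genes are orange and large-subunit genes blue. Most members form a plateau from 578 CPM per kb downwards, and 4 members lie under 10: Rpl29, Rps27, Rpl32l and Rpl3l.

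The order of the levels has a limit that falls unevenly on the members, because many ribosomal protein genes have near-identical copies elsewhere in the genome. Of the 81 members, 68 had at least 1 stretch of 150 bases, the read length, that was also present in a transcript of another gene, and in 16 such stretches made up more than 50% of the message. For Rps27 the share was 52.4%, all of it with Rps27rt, a retrogene with 0 counts in every library. Rps27 itself had 48 to 107 counts per library, against 1424 to 6179 for Rps27l, which shared no stretch with any gene. Rps12, second in the order, shared 80.7% of its stretches. The median level of the 16 members that shared over 50% was 237 CPM per kb, and that of the other 64 was 149. How reads that match several genes were counted is not given in the sources used here, so levels of these members are uncertain. Length is a further limit, since the canonical transcripts ran from 382 to 6111 bases (median 1096), with Rpl29 at 3330. Which transcripts glomeruli use was not tested. A member whose canonical transcript is longer than the one used would rank too low.

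The summed level of the members overlapped between baseline and Day 5 in both substrains. Summed over the 81 genes, the level was 19803, 14890 and 14647 CPM in the 3 baseline libraries of Ajcl and 17123, 14928 and 15935 CPM in those of ByJcl. At Day 5 it was 27079, 15400 and 14834 CPM in Ajcl and 18881, 17897 and 16049 CPM in ByJcl. Replicate 1 of Ajcl at Day 5 stood above all other libraries, 1.37 times the next highest, and replicate 1 was the highest library in all 4 groups; the labels do not say that the number marks a shared day, and all libraries carry batch 1. Without that library the 3 ByJcl libraries at Day 5 lay above both Ajcl libraries at Day 5, and the other groups compared still overlapped. The mean at Day 5 was then 0.919 of the baseline mean in Ajcl and 1.10 times it in ByJcl, and the SD over the 3 Ajcl baseline libraries alone was 2909 CPM. With it, the ratio in Ajcl was 1.16. Set against the baseline library of the same number, the Day 5 library was higher in 6 of 6 cases, by a factor of 1.01 to 1.37, so the direction in Ajcl depended on how the libraries were compared.

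**Figure D2:**
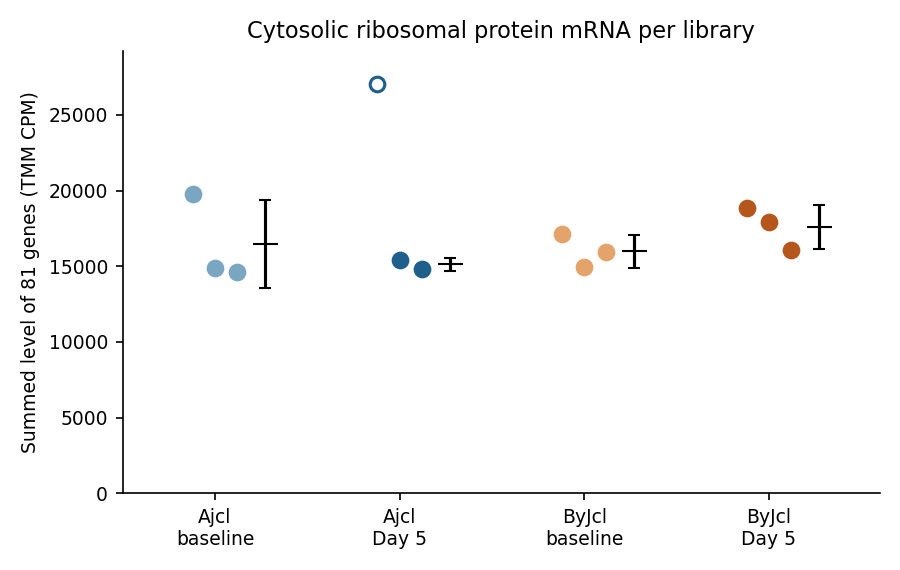
Summed level of the 81 genes in each library, in TMM CPM, by group; filled points entered the tests, the open point is replicate 1 of Ajcl at Day 5, and the dash with its bar is the mean and SD of the filled points. The open point, at 27079 CPM, is above the other 11, which lie between 14647 and 19803.

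Markers of other cells differed in the library that stood apart. In replicate 1 of Ajcl at Day 5 the 7 podocyte markers summed to 9040 CPM, against 14443 and 10118 CPM in the other 2 libraries of its group, and the 6 proximal tubule markers summed to 2704 CPM, against 1437 and 1055. The 4 distal nephron markers summed to 1746 CPM in it, against 951 and 736. Replicate 3 of Ajcl at baseline had as much proximal tubule, 2711 CPM, and a summed ribosomal protein level of 14647 CPM, the lowest of the 12. The defining glomerular markers were present in every library, podocyte markers at 7014 CPM or more and endothelial markers at 4171 CPM or more. Immune markers summed to 13.2 to 109 CPM over the 12 libraries, and the 4 haemoglobin genes of the red cell list were at 0 in all of them. Since the counting of reads that match several genes is not known, this 0 does not show that red cell RNA was absent. In bulk RNA, fewer cells of a type and less RNA per cell cannot be told apart.

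Nearly all members moved together over the libraries. Across the 11 libraries, and for the 77 members with a mean over 10 CPM, the median correlation of a member with the summed level was r = 0.928 and that of a pair of members was r = 0.842, on the log2 scale. These values describe libraries that share depth and scaling, and 64 of the 77 members had an r over 0.8 with the sum, of which each is a part. Genes outside the rule reached similar values, among them Psmb1 (r = 0.943) and Vdac3 (r = 0.933). The SD of log2 CPM over the 12 libraries had a median of 0.269, but that of the log2 share of each member in the members' total was 0.0898. The small subunit took 39.7% to 40.8% of the summed level in every library. The member that followed the others least was Rps27l (r = 0.431), or Rpl31 (r = 0.505) with all 12 libraries. Rps27l was the one whose share varied most, with an SD of 0.566 on the log2 scale.

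Outside the rule, the 5 genes whose level followed the sum most closely over the 11 libraries were Naca (r = 0.968), Eef1b2 (r = 0.967), Spcs1 (r = 0.963), Gm15772 (r = 0.951) and 1810037I17Rik (r = 0.946). Naca, a subunit of the nascent polypeptide-associated complex, and Eef1b2, an elongation factor subunit, both belong to the 17 other TOP messages counted further below. Gm15772 shares read-length stretches with Rpl26, 2.6% of those of the member, so its counts may not be independent of the family.

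Between baseline and Day 5 in ByJcl, 2 members passed the test, Rps27l and Rps19, and both rose. Rps27l was at 41.1, 30.1 and 35.8 CPM in the 3 baseline libraries and at 97.3, 102.1 and 83.2 CPM at Day 5. The lowest Day 5 library was above the highest baseline library by more than the whole spread of either group. The log2 fold change was 1.40 (SE 0.17, adjusted p = 0.00163, edgeR quasi-likelihood test with Benjamini-Hochberg adjustment over 17002 genes). Rps19, a protein of the small subunit head needed to mature its ribosomal RNA, was at 185, 165 and 160 CPM at baseline and at 263, 248 and 219 CPM at Day 5. These groups did not overlap either, and the log2 fold change was 0.52 (SE 0.13, adjusted p = 0.0280 in the same edgeR fit). In this comparison 5.75% of all tested genes were called higher and 4.83% lower, so 2 higher and 0 lower of 80 members were a smaller share than the background in both directions.

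The call of Rps27l held in each of the 20 alternative settings, with a log2 fold change from 1.27 to 1.52. That of Rps19 held in 13 of the 20. It was lost with all 12 libraries, where the log2 fold change was 0.53 with an SE of 0.21 (adjusted p = 0.153 by edgeR), and without baseline replicate 2 or 3 or Day 5 replicate 1 or 2 of ByJcl, where its log2 fold change was 0.46 to 0.50. It was also lost when libraries were scaled to the members, as given further below. The number of members called was 3 with DESeq2 and 6 without replicate 1 of Ajcl at baseline, which enters through the shared estimate of the spread (Rpl19, Rpl23, Rplp0 and Rps2 with the former 2).

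**Figure D3:**
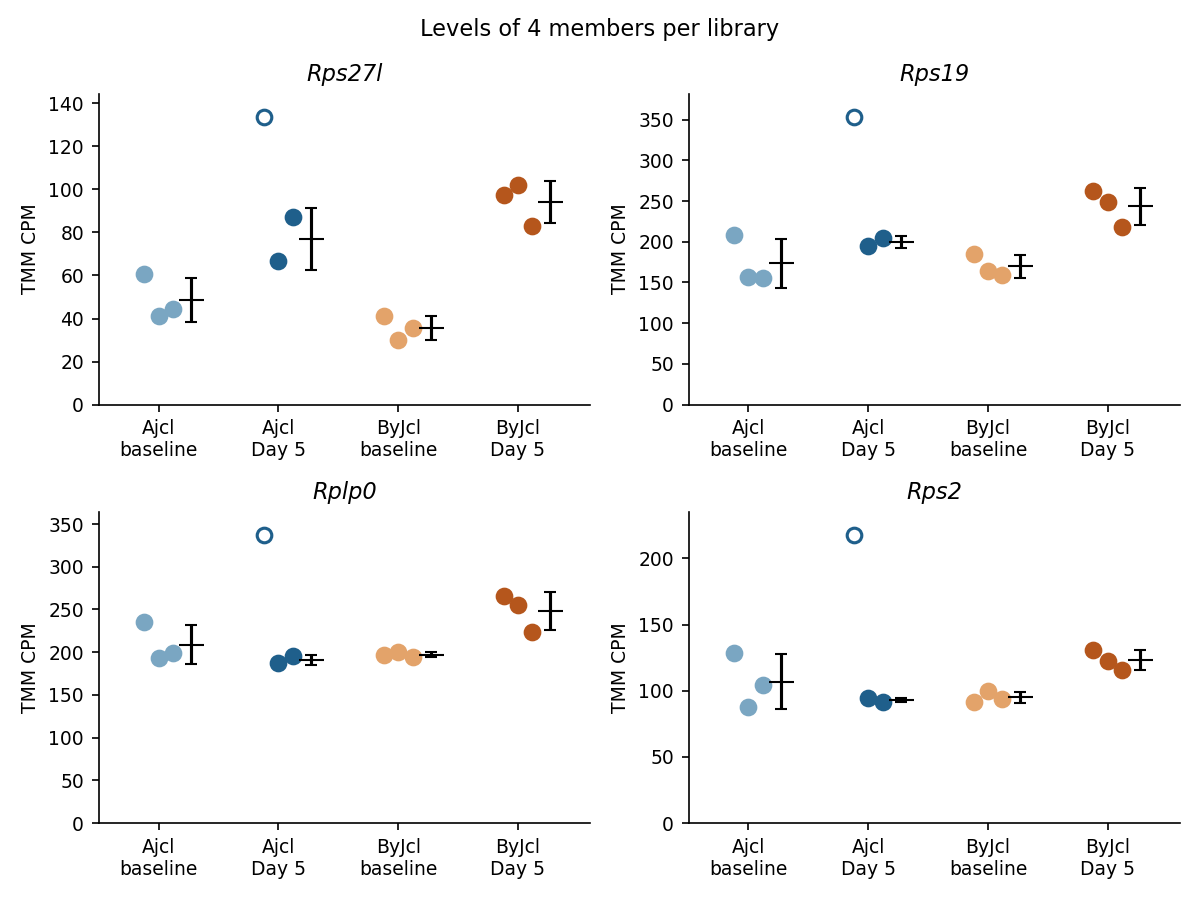
TMM CPM of Rps27l, Rps19, Rplp0 and Rps2 in each of the 12 libraries, by group; filled points entered the tests, open points are replicate 1 of Ajcl at Day 5, and the dash with its bar is the mean and SD of the filled points. In ByJcl the Day 5 points lie above the baseline points for all 4 genes; in Ajcl this holds for Rps27l alone.

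The other members shifted little in ByJcl. The log2 fold changes of the 80 members had a median of 0.11, beside 0.01 over all tested genes, with 70 higher and 10 lower than 0 and 54 within 0.2 of it. The small-subunit median was 0.11 and the large-subunit median also 0.11. The libraries of the 2 groups did not overlap, with Day 5 higher, for 13 of 80 members (16.2%), against 17.3% of all tested genes. Rplp0, the base of the P stalk, was at 196, 200 and 195 CPM at baseline and at 266, 256 and 224 CPM at Day 5 (log2 fold change 0.33, SE 0.10, adjusted p = 0.0628 by edgeR). It passed with DESeq2 and with the filter of 1 CPM in 3 libraries. Rps2 was at 91.8, 99.9 and 93.7 CPM at baseline and at 130.8, 122.6 and 115.8 CPM at Day 5 (log2 fold change 0.37, SE 0.13, adjusted p = 0.0857 by edgeR), and passed in neither of these. For both genes all Day 5 libraries were above all baseline libraries. The lowest log2 fold change belonged to Rpl3l, at -0.48 with an SE of 1.06 on its few counts.

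Between baseline and Day 5 in Ajcl no member passed. The background was 0.306% of all genes called higher and 0.00588% called lower, and 1 member, Rps27l, had an unadjusted p under 0.05 (1 also with DESeq2), beside 1666 of all 17002 genes by edgeR. Rps27l was at 60.5, 41.0 and 44.6 CPM at baseline and at 66.6 and 87.0 CPM in the 2 Day 5 libraries used, with 134 CPM in the library left out. All Day 5 libraries were above all baseline libraries, and the log2 fold change was 0.66 (SE 0.19, adjusted p = 0.240 by edgeR). With 12 libraries it was 0.96 (SE 0.23, adjusted p = 0.167 by edgeR). Rps18, in the head of the small subunit, had the lowest log2 fold change, -0.26 (SE 0.15), not past the threshold. With 12 libraries that of Rps18 was 0.12 (SE 0.24).

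The direction of the family in Ajcl depended on single libraries. Over the 11 libraries the median log2 fold change of the 80 members was -0.12, with 8 higher and 72 lower than 0, but the groups did not overlap, with Day 5 lower, for only 3 of 80 members (3.75%), against 11.5% of all tested genes. Without baseline replicate 1, the highest of its group, the median was 0.02. The Day 5 libraries then lay above the baseline libraries for 26 of 80 members, against 3055 of 17002 tested genes (18%). With that library this held for 1 member, against 13.6% of all tested genes. With the replicate block the median was -0.0350. With Day 5 replicate 1 added back the median was 0.19, with 79 members higher and 1 lower. In that library 77 of 80 members were more than 1.3 times the mean of the other 2 Day 5 libraries, with a median ratio of 1.78. The ratio was above 1.3 for 26.8% of all tested genes. The largest ratios in that library were those of Rpl37a (2.74), Rps21 (2.40) and Rpl38 (2.40), and the smallest those of Rps27 (1.05), Rpl31 (1.20) and Rps4l (1.23). Over the members, the log2 of this ratio had a Spearman correlation of -0.349 with the length of the canonical transcript. The tubule markers that stood higher in the same library are given above. The part of tubule content or of transcript length in this was not tested.

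At baseline no member passed between the substrains, beside a background of 0.135% of genes called higher in ByJcl and 0.0235% called lower, and 1 member had an unadjusted p under 0.05 (2 with DESeq2), beside 1418 of all 17002 genes by edgeR. The member was Rps27l, at 41.1, 30.1 and 35.8 CPM in ByJcl and at 60.5, 41.0 and 44.6 CPM in Ajcl, so that the highest ByJcl library lay just above the lowest Ajcl library (log2 fold change -0.45, SE 0.17, adjusted p = 0.577 by edgeR). Next were Rpl31 (-0.47, SE 0.24) and Rps2 (-0.17, SE 0.13). The high value of Rpl31, a protein at the exit tunnel, in Ajcl came from replicates 1 and 2, at 373 and 288 CPM, with 173 CPM in replicate 3. The median over the 80 members was -0.03, and 77 members lay within 0.2 of 0. That value rested on Ajcl replicate 1, the highest baseline library. Without it the median was 0.09, and the 3 ByJcl libraries lay above the other 2 Ajcl libraries for 33 of 80 members, against 13.0% of all tested genes. With it this held for 0 members, against 9.19% of all tested genes. No member was called either way.

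At Day 5 the members were higher in ByJcl than in Ajcl as a family, without a member that passed, and only as long as replicate 1 of Ajcl was left out. The median log2 fold change was 0.23, beside 0.00 over all genes, with 77 higher and 3 lower. Replicate 1 was the highest library of every group, and Ajcl at Day 5 was the one group without it; under the replicate block the median was 0.141. The 3 libraries of ByJcl lay above both libraries of Ajcl for 56 of 80 members (70.0%), against 16.9% of all tested genes, and below them for 0. The members rise and fall together over the libraries. This count therefore restates the difference in their summed level and does not stand for 56 separate results. The same applies to such counts in the other comparisons. With all 3 libraries of Ajcl, no member had groups that did not overlap, against 9.88% of all tested genes higher and 9.46% lower. The median was then -0.11, with 13 higher and 67 lower. Calls over all genes were 0.135% higher and 0.0294% lower, and 5 members had an unadjusted p under 0.05 by edgeR and 5 by DESeq2, beside 2374 of all 17002 genes by edgeR, a larger share. Smallest was that of Rplp0, at 266, 256 and 224 CPM in ByJcl and at 187 and 195 CPM in Ajcl, with 337 CPM in the library left out (log2 fold change 0.38, SE 0.12, adjusted p = 0.211 by edgeR). Rpl12, which anchors the P stalk together with Rplp0, had the highest log2 fold change, 0.44 (SE 0.16), and Rps2, at the entry of the messenger channel, had 0.40 (SE 0.14). With 12 libraries the log2 fold change was 0.15 for Rpl12 and 0.06 for Rplp0, and that of Rps2 turned negative. Other lists also separated the 2 Ajcl libraries from the 3 ByJcl libraries at Day 5: distal nephron markers summed to 951 and 736 CPM against 93.6, 494 and 360 CPM, immune markers to 13.2 and 46.3 CPM against 109, 56.7 and 57.8 CPM, and p53 targets to 1073 and 1667 CPM against 1865, 2415 and 1705 CPM. So did the 17 other TOP messages, at 8561 and 8203 CPM against 9107, 9855 and 8926 CPM, and the mitochondrial ribosomal protein genes, at 1831 and 1803 CPM against 2033, 1919 and 1917 CPM. Podocyte and proximal tubule markers overlapped. The part of these in the difference was not tested.

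**Figure D4:**
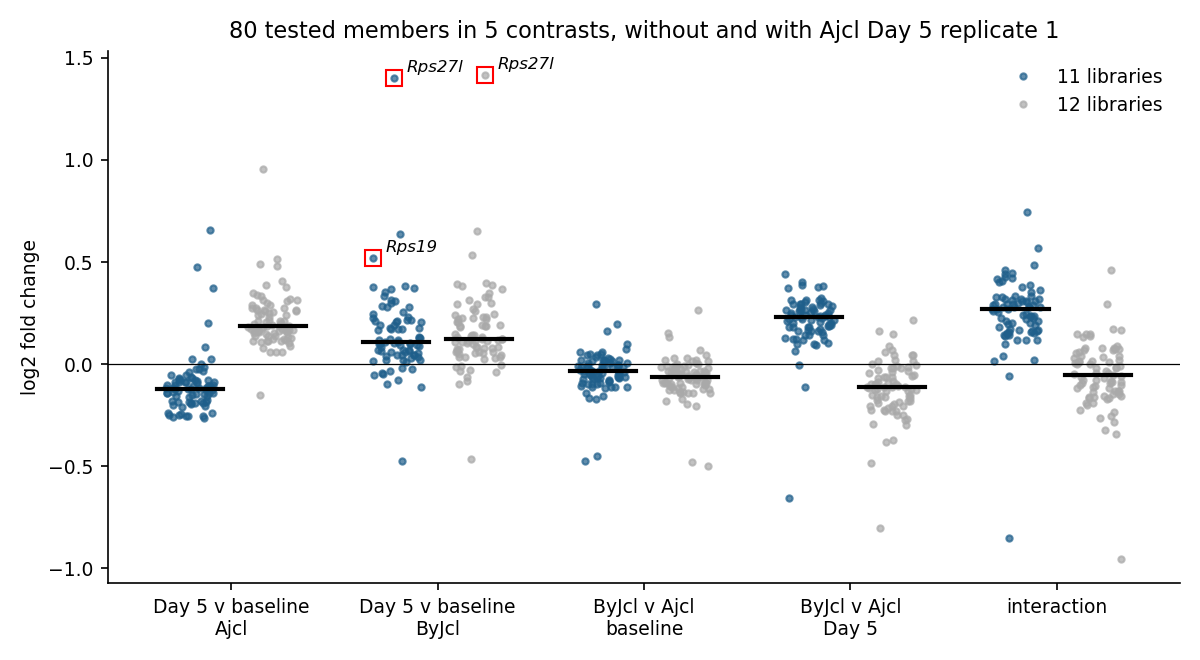
Log2 fold change of the 80 tested members in the 5 contrasts, one point per gene with the horizontal offset at random; blue points are from the 11-library fit, grey points from the 12-library fit with replicate 1 of Ajcl at Day 5, black lines are medians and red squares are genes past the threshold. The median changes sign between the fits in Ajcl (-0.12 and 0.19), at Day 5 (0.23 and -0.11) and in the interaction (0.27 and -0.05), but not in ByJcl (0.11 and 0.12).

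The interaction, the response of ByJcl less the response of Ajcl, was called for no gene of the 17002 (0.0% in either direction), with 1363 genes at an unadjusted p under 0.05. Of the members, 3 had such a p by edgeR and 6 by DESeq2. The 3 by edgeR were Rps2 (0.57, SE 0.19), Rplp0 (0.46, SE 0.16) and Rps27l (0.74, SE 0.26), each with an adjusted p of 0.620 by edgeR. With 12 libraries these values fell to 0.07 for Rps2, 0.17 for Rplp0 and 0.46 for Rps27l. The median over the 80 members was 0.27, with 78 above 0, and with 12 libraries it was -0.05, with 31 above 0. With the replicate block it was 0.159. The larger response of Rps27l in ByJcl therefore did not pass as a difference between the substrains.

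Against the rest of the family, Rps27l alone passed the test, in ByJcl. When libraries were scaled to the summed counts of the members, a setting added after the data were seen, Rps27l had a log2 fold change of 1.27 (SE 0.14, adjusted p = 0.00159 by edgeR) in ByJcl and of 0.79 (SE 0.15, adjusted p = 0.0833) in Ajcl. Rps19 had 0.38 (SE 0.11, adjusted p = 0.0750 by edgeR) in ByJcl and 0.32 (SE 0.12, adjusted p = 0.481) in Ajcl. Rps27 had larger values than Rps19, 0.49 (SE 0.30) in ByJcl and 0.60 (SE 0.33) in Ajcl, with wider errors on its few counts. As a share of the members' total counts, Rps27l took 0.202% to 0.305% in the 6 baseline libraries and 0.432% to 0.587% in the 6 Day 5 libraries, the library left out of the tests included. Rps19 took 1.00% to 1.10% at baseline and 1.26% to 1.39% at Day 5. For both genes all 6 Day 5 libraries were above all 6 baseline libraries, and of the other 75 members over 10 CPM this held for Rps20 alone (1.142% to 1.207% against 1.085% to 1.136%), while 0 members were lower in all 6. Of all 10127 tested genes over 10 CPM, scaled to the members in the same way, 0.415% were higher and 1.11% lower in all 6. On this scale replicate 1 of Ajcl at Day 5 lay within the range of the other Day 5 libraries for Rps27l and Rps19. The contrast of Day 5 and baseline is also one between 2 separately deposited tables.

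**Figure D5:**
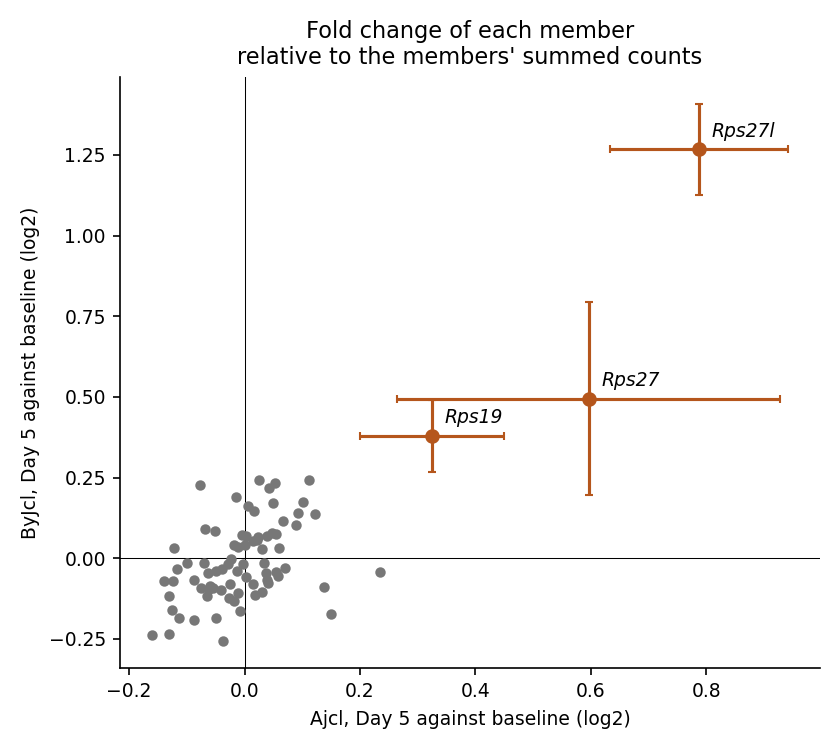
Log2 fold change of each member from baseline to Day 5 relative to the summed counts of the members, in Ajcl (horizontal) and ByJcl (vertical), for 79 of the 80 tested members (Rpl3l, with few counts, is not drawn); bars on the 3 named genes are SEs. Rps27l lies at 0.79 and 1.27 and Rps19 at 0.32 and 0.38, and most other members lie around 0 on both axes.

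The p53 targets moved in both substrains. All 8 listed targets were called higher in ByJcl and 5 of 8 in Ajcl, where all 8 had a log2 fold change above 0. Over all tested genes 5.75% were called higher in ByJcl and 0.306% in Ajcl. The interaction was called for none of the 8. Their summed level was 336 to 383 CPM over the 6 baseline libraries and 1073 to 2415 CPM over the 6 Day 5 libraries. Cdkn1a, the inhibitor of cyclin-dependent kinases, had a log2 fold change of 3.94 (SE 0.30) in Ajcl and 5.04 (SE 0.31) in ByJcl, both called, and Mdm2 had 1.24 (SE 0.16) in ByJcl, also called.

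Of the 9 proteins known to bind Mdm2 or to encode its relatives in the family, Rps27l alone was called, in ByJcl. Over all tested genes 5.75% were called higher in ByJcl and 0.306% in Ajcl. The other 8 stayed within 0.64 of 0 on the log2 scale in either Day 5 contrast. Rpl5 and Rpl11, which reach Mdm2 with ribosomal RNA in one particle, had log2 fold changes of -0.14 and -0.19 in Ajcl and of 0.10 and 0.23 in ByJcl. Rpl23 had -0.02 and 0.32, Rps7 -0.09 and 0.21, and Rps3 -0.09 and 0.12, in the same order. Rps27a, whose message also encodes ubiquitin, had -0.25 and 0.07, and Rpl26, which binds the p53 message, 0.03 and -0.03. Rps27, the parent of Rps27l, had 0.47 (SE 0.33) and 0.64 (SE 0.30), from the few counts described above (adjusted p = 0.731 and 0.204 by edgeR). The values below 0 in Ajcl rested on the library left out: with 12 libraries all 9 were above 0 there, Rpl5 at 0.18 and Rpl11 at 0.21.

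The P stalk had 4 members of 4 below 0 in Ajcl and 4 of 4 above 0 in ByJcl at Day 5 against baseline, with 0 called; over the whole family 72 of 80 members were below 0 in Ajcl and 70 of 80 above 0 in ByJcl. The median over the 4 was -0.12 in Ajcl and 0.20 in ByJcl. With 12 libraries all 4 were above 0 in Ajcl too, with a median of 0.22. Rplp1 and Rplp2, the dimer at the tip, had 0.08 and 0.11 in ByJcl, where Rplp0 and Rpl12 at the base had 0.33 and 0.30.

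Of the 5 listed paralogs, Rpl3l, Rpl10l, Rpl39l, Rps4l and Rps27l, the last alone was called in any contrast. That call was at Day 5 against baseline in ByJcl, where 5.75% of all tested genes were called higher. Rps4l, the paralog of Rps4x, was at 8.98 to 27.2 CPM over the 12 libraries, with log2 fold changes of 0.09 in Ajcl and 0.10 in ByJcl. Rpl39l, known from the testis, had 16 counts in all, 14 of them in replicate 1 of Ajcl at Day 5 and 2 in replicate 3 of the same group, and was not tested. Most low counts in the tables are even numbers, and the sources used here do not say whether the ends of a read pair were counted separately, so these counts may stand for fewer fragments. Rpl39, the parent of Rpl39l, was at 94.9 CPM ± 24.4 (SD, n = 3) at baseline in Ajcl and at 93.9 CPM ± 12.9 (SD, n = 3) in ByJcl.

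Of the 18 genes of the Diamond-Blackfan anaemia list, Rps19 alone was called, in ByJcl. There 5.75% of all tested genes were called higher, so this count was near the background. The median of the list was 0.15 in ByJcl, with 15 of 18 above 0, and -0.12 in Ajcl, with 3 of 18 above 0, close to the values over all members. With 12 libraries the median in Ajcl was 0.22, with 17 of 18 above 0, and Rps19 was not called.

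Among ribosomal genes whose symbols fall outside the rule, Rps27rt was not tested. Fau, which encodes a small-subunit protein fused to a ubiquitin-like one, had log2 fold changes of -0.17 in Ajcl and 0.01 in ByJcl, and Rack1, a scaffold protein on the small subunit, had -0.05 and 0.15. The Ajcl values are without replicate 1 of Day 5. In it Fau was at 378 CPM, against 192 and 181 CPM in the rest of its group, and Rack1 at 480 CPM, against 333 and 320 CPM. Rpl36al, a close paralog of Rpl36a, was called in ByJcl (log2 fold change 0.55, SE 0.14, adjusted p = 0.0271 by edgeR), at 46.8, 43.4 and 47.2 CPM at baseline and at 67.2, 72.3 and 62.0 CPM at Day 5.

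The 78 mitochondrial ribosomal protein genes, which build a separate ribosome, had medians of the same sign in the 11-library fit. The median was -0.13 in Ajcl and 0.14 in ByJcl, with 4 called higher in ByJcl (Mrpl33, Mrps18b, Mrpl54 and Mrpl45) and 0 lower, a share near the 5.75% of all tested genes called higher. Their mean sum in Ajcl at Day 5 was 1817 CPM without replicate 1 and 2224 CPM with it, against 1998 CPM at baseline. The direction in Ajcl therefore depended on that library. The ratio of replicate 1 of Ajcl at Day 5 to the other 2 libraries had a median of 1.62 for them, against 1.78 for the cytosolic members and 0.987 for all tested genes.

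Of 17 other TOP messages, 2 were called in ByJcl, 1 in each direction, and 0 in Ajcl. Over all tested genes in ByJcl 5.75% were called higher and 4.83% lower, so this count was near the background. Hnrnpa1, an RNA-binding protein, rose by a log2 fold change of 0.67 (SE 0.19) and Nap1l1, a histone chaperone, fell by 0.70 (SE 0.16). The median was 0.10 in ByJcl and -0.06 in Ajcl, and elongation factor Eef1a1 had 0.25 and 0.03. The mean sum of the 17 messages in Ajcl at Day 5 was 8382 CPM without replicate 1 and 9367 CPM with it, against 8461 CPM at baseline. The direction in Ajcl therefore depended on that library.

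Of 11 genes that control translation and the growth of ribosomes, 2 were called, both higher in ByJcl at Day 5 and none in Ajcl, where 5.75% and 0.306% of all tested genes were called higher. Myc, a transcription factor that drives ribosome production, was at 2.34, 2.92 and 3.67 CPM at baseline and at 6.24, 14.4 and 9.70 CPM at Day 5 in ByJcl. Its log2 fold change was 1.76 (SE 0.32, adjusted p = 0.00785 by edgeR). Eif4ebp1, the mTOR-controlled repressor of cap-dependent translation, was at 12.2 CPM in 2 baseline libraries and 13.0 CPM in the other, and at 15.8 to 23.2 CPM at Day 5 (log2 fold change 0.61, SE 0.16, adjusted p = 0.0389 by edgeR). Mtor had 0.12 in Ajcl and -0.18 in ByJcl, and Larp1, which binds the TOP motif, had -0.06 and -0.03, with neither called.

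In ByJcl all 7 podocyte markers fell at Day 5, with a median log2 fold change of -1.28, and in Ajcl 0 of 7 were called (median -0.33). Over all tested genes 4.83% were called lower in ByJcl and 0.00588% in Ajcl. The summed podocyte level in ByJcl was 17944 to 20756 CPM at baseline and 7014 to 10480 CPM at Day 5, while the members shifted by a median of 0.11. The glomerular endothelial markers summed to 6982 to 8364 CPM at baseline and 4171 to 6312 CPM at Day 5, without overlap, but the 6 genes did not move as one. Ehd3 and Flt1 were called lower (log2 fold changes -0.81 and -0.54), Kdr had -0.61 and Emcn -0.32, and Cdh5 and Pecam1 had 0.13 and 0.29, none of these 4 past the threshold. The podocyte markers and these 2 endothelial genes changed between the same groups as Rps27l and Rps19, and their part in those changes was not tested.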

How the data were processed

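Glomeruli were isolated after perfusion with magnetic beads, and poly(A)-selected, strand-specific RNA was sequenced as read pairs. Per the labels, the authors used FastQC, Trimmomatic, STAR with the GRCm39 genome and featureCounts, and deposited raw counts per gene symbol in 2 tables, 1 for baseline and 1 for Day 5, with 3 libraries in each group and none pooled. The annotation and the treatment of strand and of reads matching several genes are not given in the sources used here. Library totals were 42198416 to 54687045 counts (median 46915194), and between 77.1% and 82.8% of counts under 50 were even numbers. The pairs of replicates differed by more than sampling noise, so none was a second copy. The labels do not state that libraries came from separate animals, and p-values measure the spread between these libraries.

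The test was edgeR 4.0.16 (R 4.3.3): filterByExpr, TMM scaling and a quasi-likelihood fit of 11 libraries with 1 coefficient per group (7 residual degrees of freedom), and 5 contrasts over 17002 genes, called at an adjusted p under 0.05. It was tested on simulated data. Alternatives were DESeq2 1.42.0, RLE factors, TMM without the members, other filters, all 12 libraries, a replicate block and leaving out each library. Levels are TMM CPM. Named genes were the called members (the 3 of smallest p where none was called), the extremes of level and fold change, and the lists given; some genes that this rule names are not reported here. The members and the lists were chosen with earlier results of these data known. GENCODE vM39 gave positions, lengths and shared stretches. Tables and figures used Python 3.11.15, pandas 2.3.3 and matplotlib 3.10.9.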

Additional observations from a re-analysis of the deposited data

Results flagged for a closer look

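Replicate 1 of Ajcl at Day 5, the library outside the comparisons, had a summed level of 27079 CPM over the 81 genes, above the 14647 to 19803 CPM of the baseline libraries. The same library had 14 counts of Rpl39l, which had 0 in all 6 baseline libraries.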

How the results depend on the processing

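Of 430 values computed under alternatives, 403 kept their direction and side of the threshold, and 0 members were called in Ajcl, at baseline, at Day 5 between substrains or in the interaction under any of them. The number of members called in ByJcl, 2, was 1 with 12 libraries and 1 when libraries were scaled to the members (11 or 12 libraries), and 1 to 6 when 1 library was left out; without Ajcl baseline replicate 1 it was 6 (Rpl19, Rpl23, Rplp0, Rps19, Rps2 and Rps27l). With 12 libraries the median log2 fold change of the members was 0.19 in Ajcl, -0.11 between substrains at Day 5 and -0.0535 in the interaction, the summed-level ratio in Ajcl was 1.16, and Rps27l between substrains at Day 5 had -0.0174. Leaving out 1 library gave medians in Ajcl of -0.188 to 0.0202. The cause was not tested. Whether the replicate numbers in the labels pair the libraries was not settled: over all tested genes, deviations of same-numbered libraries correlated from -0.389 to 0.527, while for the summed level replicate 1 was highest in every group. With the replicate block 2 members were called in ByJcl, and the median was 0.141 between substrains at Day 5 and -0.0350 in Ajcl. Depth does not limit the abundant members, but Rps27, Rpl32l, Rpl3l and Rpl39l have too few counts for a small change to be seen.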
